A study of Mus musculus with 8 samples.

Results

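For the marrow niche of megakaryocytes (MKs), 10 genes were followed: the 9 secreted or membrane-bound factors Cxcl12, Kitl, Angpt1, Il6, Lif, Csf1, Il7, Il11 and Fgf2, and Cxcr4, the receptor of Cxcl12. They were chosen by name, as factors with which stromal cells support blood cells and their precursors, and all 10 were found among the 13387 genes of the count table. The table holds 8 bulk RNA-Seq libraries from C57BL/6 mouse bone marrow, 4 of MKs cultured alone and 4 of MKs cocultured with mesenchymal stromal cells (MSCs), all after 18 hours of culture. MKs were enriched from flushed marrow with beads against CD41, an integrin chain of MKs and platelets. MSCs were sorted as CD45-Ter119-CD31-CD51+PDGFRα+ cells and were left to adhere before MKs were added, in medium with thrombopoietin that both groups shared. Suspended cells were taken off the MSC layer by hand, and several wells were pooled per library. The labels describe the sequenced cells as MKs separated from platelets, whereas the methods describe platelets made in culture. Replicates are numbered in the labels without naming animals or cultures. The platelet RNA is described as from 4 mice per group, with no library tied to a mouse, so p-values measure the spread between these libraries, which may be partly technical. No genotype or drug differed between the groups.

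In marrow, perivascular stromal cells, also called CXCL12-abundant reticular (CAR) cells, make CXCL12 and the membrane-bound or shed KIT ligand. CXCL12 draws and holds cells that carry CXCR4, MK progenitors among them, next to the sinusoids where platelets are shed. KIT ligand acts on progenitors and mast cells through KIT, and CSF1 sustains macrophages through CSF1R. IL-6, LIF and IL-11 are relatives that all signal through gp130 (the product of Il6st) and support MK maturation. IL-7 supports early B cells, FGF2 acts on stromal cells and MKs through FGF receptors and heparan sulfate, and ANGPT1 acts on TIE2 (the product of Tek).

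On the GRCm38 build, Cxcl12 lies at chr6:117168535-117181367 on the plus strand and Cxcr4 at chr1:128588199-128592293 on the minus strand. Csf1 lies at chr3:107741048-107760469 on the minus strand and Il6 at chr5:30013114-30019981 on the plus strand. These 4 genes include the members with the clearest changes and 1 gp130 cytokine with lower levels in every coculture. The 120 bases before their annotated starts are printed here because they show how the 4 upstream regions differ. The sequences are from RefSeq on GRCm38.p6, which held a promoter for 8 of the 10 genes (Angpt1 and Il7 had none), and run 5′ to 3′ on the strand of the gene. Capitals mark motifs found on either strand. The GC box was searched as GGGCGG. The TATA motif was searched as TATAAA. The NF-kB motif was searched as GGG, any 2 bases and then TTTCC.
Cxcl12, chr6:117168415-117168534: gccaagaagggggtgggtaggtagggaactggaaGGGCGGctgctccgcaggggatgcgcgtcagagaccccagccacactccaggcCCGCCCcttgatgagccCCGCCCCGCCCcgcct
Cxcr4, chr1:128592300-128592419: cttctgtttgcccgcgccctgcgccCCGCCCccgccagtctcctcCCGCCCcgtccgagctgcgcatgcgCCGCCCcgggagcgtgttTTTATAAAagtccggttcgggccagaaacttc
Csf1, chr3:107760470-107760589: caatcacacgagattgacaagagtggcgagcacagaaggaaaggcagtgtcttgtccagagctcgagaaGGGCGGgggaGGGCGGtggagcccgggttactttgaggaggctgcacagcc
Il6, chr5:30012994-30013113: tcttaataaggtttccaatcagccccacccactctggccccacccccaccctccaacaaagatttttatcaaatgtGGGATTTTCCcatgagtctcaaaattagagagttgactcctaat
Over the 250 bases before the start, on both strands, Cxcl12 held 5 GC boxes, of which 2 share a base, Cxcr4 held 3 and Csf1 held 2, and a GC box was present in 32.7% of the 32851 RefSeq promoters. The TATA motif of Cxcr4, read on both strands of the same 8 letters, ended 25 bases before the start, and such a motif was present in 12.4% of promoters. Il6 held an NF-kB motif from -44 to -35, and Csf1 held one from -154 to -145, outside the stretch printed, against 1.41% of promoters with such a motif. Il6 also held an AP-1 motif (TGANTCA, in 6.75% of promoters) and a C/EBP motif (TTGCNNAA, in 9.56%). These are matches of letters, and no binding was measured.

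Library totals ran from 4939874 to 12523616 counts. Levels are given as CPM, counts scaled with TMM factors to a library size common to all libraries, and 3 counts corresponded to between 0.284 and 0.662 CPM. Replicate 3 of the cocultures stood apart, with counts on 10735 genes where the other 7 libraries had 12406 to 13193, although its total was the highest. The results of the 10 genes are therefore given with and without it. MK and platelet markers, 14 genes, summed to between 1883 and 2157 CPM in MKs cultured alone and between 1598 and 2330 CPM in cocultures. MSC and fibroblast markers, 10 genes analysed, summed to between 42.9 and 72.8 CPM in MKs cultured alone and between 1408 and 4319 CPM in cocultures, the lowest of these in replicate 3. Neutrophil markers, 10 genes, summed to between 79399 and 82503 CPM in MKs cultured alone and between 4453 and 9753 CPM in cocultures, so the libraries labelled MKs held much RNA of neutrophil genes. Macrophage markers, 10 genes, summed to between 152 and 227 CPM in MKs cultured alone and between 912 and 1357 CPM in cocultures. The part of these other cells in the results for the niche factors was not tested, and in bulk RNA fewer cells of a type and less RNA per cell cannot be told apart.

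Genes were tested with edgeR's quasi-likelihood test, adjusted by the Benjamini-Hochberg method over all genes, and a call required 3 things: a 2-fold difference or more, an adjusted p not above 0.05, and 1 CPM or more on average in 1 group. Cxcl12 and Csf1 were called higher in cocultures and Cxcr4 was called lower, against 13.2% of the 11722 genes tested that were called higher and 7.31% that were called lower. Kitl, Angpt1 and Il6 were tested and not called. Genes at or near 0 counts in MKs cultured alone, such as Cxcl12, pass the filter through the cocultures and could be called higher only. Fgf2, Il7, Lif and Il11 did not pass the filter on low counts, and their values come from a fit of all 13387 genes without the filter, in which Fgf2 was also called higher and 13.5% of genes were called higher and 6.66% lower. Without replicate 3 of the cocultures and without the filter, a fit added after the data were seen, 6 of the 10 genes were called higher (Cxcl12, Csf1, Kitl, Fgf2, Il7 and Lif) and 2 lower (Cxcr4 and Il6). In that fit 20.6% of genes were called higher and 14.6% lower. Over the 8 libraries, the groups did not overlap for Cxcl12, Csf1 and Fgf2, which were higher in every coculture, or for Cxcr4, Angpt1 and Il6, which were lower in every coculture. Of all genes, 17.8% did not overlap and were higher in cocultures, and 19.4% were lower.

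**Figure D1:**
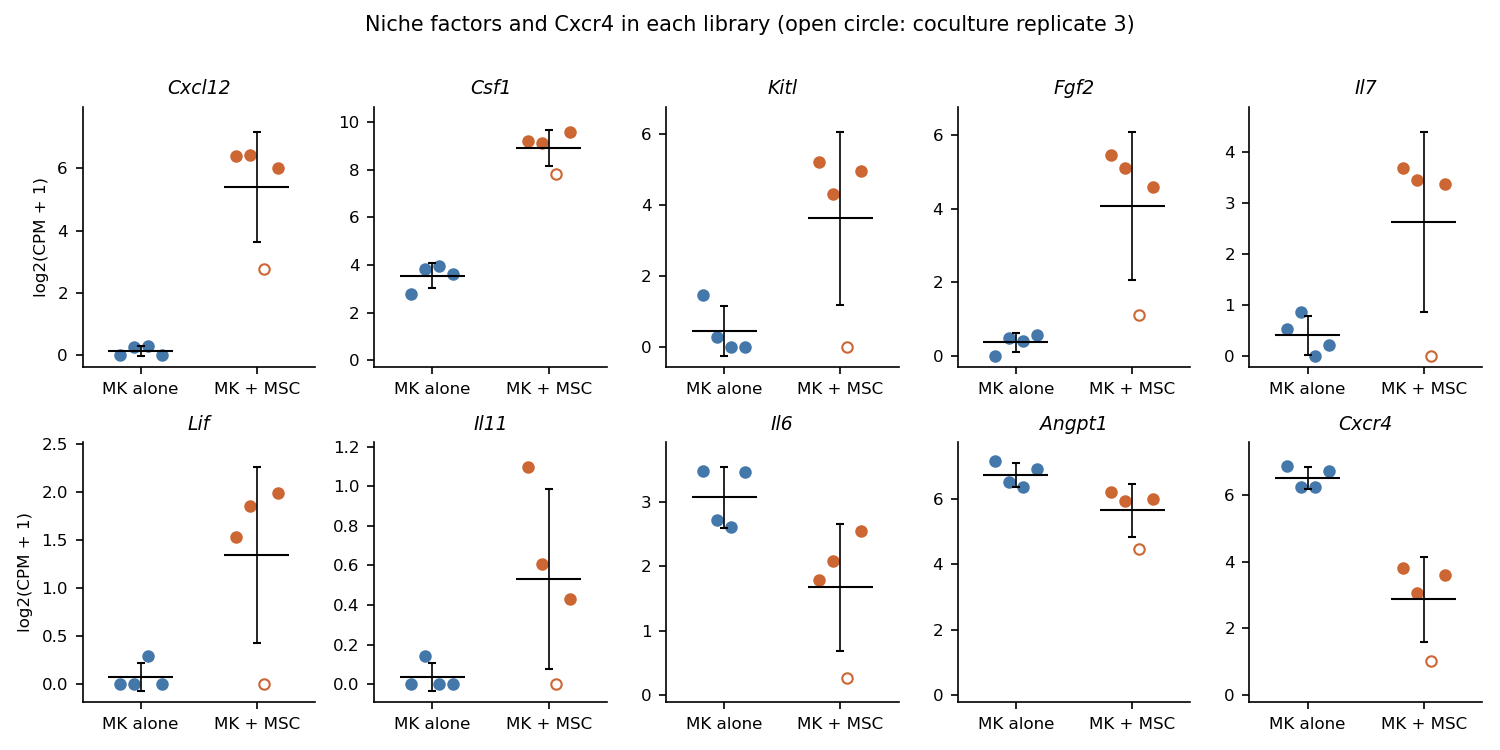
Level of the 9 factors and of Cxcr4 in each of the 8 libraries, as log2(CPM + 1), with MKs cultured alone in blue and cocultures in orange; lines and bars give the mean ± SD of 4 libraries. The open circle is replicate 3 of the cocultures, which is the lowest coculture for all 10 genes and lies at 0 for Kitl, Il7, Lif and Il11.

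Cxcl12, the chemokine that retains CXCR4-bearing cells in marrow, was close to absent from MKs cultured alone and present in every coculture. MKs cultured alone held 0, 2, 2 and 0 counts of Cxcl12, and cocultures held 870, 657, 56 and 366 counts. The levels were 0, 0.206, 0.222 and 0 CPM against 82.5, 85.6, 5.86 and 63.5 CPM. All 4 cocultures were therefore above all 4 libraries of MKs cultured alone, with replicate 3 far below the other 3. The mean was 0.107 ± 0.124 CPM (SD, n = 4) in MKs cultured alone and 59.3 ± 37.0 CPM (SD, n = 4) in cocultures. The log2 fold change of Cxcl12 was 8.68 (SE 1.12, 95% interval 6.13 to 11.23, edgeR adjusted p = 0.000775), and 8.98 without replicate 3 (SE 0.38, edgeR adjusted p = 6.65e-12). Because the 4 libraries of MKs cultured alone held only 4 counts of Cxcl12 in all against 1949, the ratio of the summed CPM was 427 with a 95% counting interval from 166 to 1569. Reads carry no molecular identifiers, so such intervals and limits cover counting error only. Per 1000 CPM of MSC markers, Cxcl12 stood at 23.9, 19.8 and 20.2 CPM in replicates 1, 2 and 4 and at 4.16 CPM in replicate 3.

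Cxcr4, the receptor through which CXCL12 acts, moved the other way. Its counts were 518, 716, 669 and 634 in MKs cultured alone and 138, 56, 10 and 64 in cocultures. As levels, MKs cultured alone held 114, 73.8, 74.2 and 103 CPM of Cxcr4 and cocultures held 13.1, 7.29, 1.05 and 11.1 CPM. No coculture reached the lowest library of MKs cultured alone. The mean fell from 91.4 ± 20.6 CPM to 8.13 ± 5.30 CPM (SD, n = 4 each), an 11.2-fold lower level in the fitted model. The log2 fold change of Cxcr4 was -3.49 (SE 0.66, 95% interval -4.98 to -2.0, edgeR adjusted p = 0.0056), and -3.13 without replicate 3 (SE 0.25, edgeR adjusted p = 2.1e-08).

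Neutrophils also carry CXCR4, and all 10 neutrophil markers were called lower. Per 1000 CPM of summed neutrophil markers, Cxcr4 stood at 1.44, 0.894, 0.906 and 1.27 CPM in MKs cultured alone and at 1.34, 0.791, 0.235 and 1.16 CPM in cocultures, so these ratios overlapped between groups. Per 1000 CPM of summed MK and platelet markers, Cxcr4 stood at 53.0, 35.3, 39.4 and 50.3 CPM in MKs cultured alone and at 7.72, 4.57, 0.449 and 5.66 CPM in cocultures, without overlap. Summed markers of B cells, of T and NK cells, and of mast cells and basophils were lower too, and those of macrophages were higher. B cell markers went from between 886 and 946 CPM in MKs cultured alone to between 91.1 and 236 CPM in cocultures. T and NK cell markers went from between 119 and 204 CPM to between 0.523 and 25.9 CPM. The part of neutrophil or other leukocyte RNA in the lower Cxcr4 level was not tested.

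Csf1, the growth factor of macrophages, had the highest level of the 9 factors in cocultures. Its counts were 27, 127, 130 and 70 in MKs cultured alone and 6194, 4355, 2181 and 4414 in cocultures. As levels, MKs cultured alone held 5.96, 13.1, 14.4 and 11.4 CPM of Csf1 and cocultures held 587, 567, 228 and 766 CPM. The groups lay far apart, and the lowest coculture was again replicate 3. The mean rose from 11.2 ± 3.72 CPM to 537 ± 224 CPM (SD, n = 4 each). The log2 fold change of Csf1 was 5.57, or 47.5-fold (SE 0.47, 95% interval 4.51 to 6.63, edgeR adjusted p = 8.62e-05), and 5.78 without replicate 3 (edgeR adjusted p = 1.12e-11). Per 1000 CPM of MSC markers, Csf1 stood at 170, 131, 162 and 244 CPM in the 4 cocultures, so that replicate 3 lay among the others on this scale, unlike for Cxcl12.

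Kitl, which encodes the ligand of KIT, was detected in 3 of the 4 cocultures. Its counts were 8, 2, 0 and 0 in MKs cultured alone and 381, 144, 0 and 175 in cocultures. As levels, MKs cultured alone held 1.77, 0.206, 0 and 0 CPM of Kitl and cocultures held 36.1, 18.8, 0 and 30.4 CPM. The groups overlapped only through replicate 3 of the cocultures, whose 0 counts allow a level of up to 0.314 CPM. With all 8 libraries the log2 fold change of Kitl was 5.59 (SE 1.85, 95% interval 1.39 to 9.78), which did not pass the threshold in edgeR (adjusted p = 0.0591) and passed it in DESeq2 (5.46, adjusted p = 0.00747). Without replicate 3 the mean in cocultures was 28.4 ± 8.84 CPM (SD, n = 3) and the log2 fold change was 6.23 (SE 0.62, edgeR adjusted p = 4.1e-07).

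Of the 3 gp130 cytokines, Il6 was the only one with clear counts in MKs cultured alone. Its counts were 46, 54, 46 and 62 in MKs cultured alone and 26, 25, 2 and 28 in cocultures. As levels, MKs cultured alone held 10.2, 5.57, 5.10 and 10.1 CPM of Il6 and cocultures held 2.46, 3.26, 0.209 and 4.86 CPM. All cocultures lay below all libraries of MKs cultured alone, but the highest coculture came close to the lowest of them. The log2 fold change of Il6 was -1.52 (SE 0.82, 95% interval -3.37 to 0.33), which did not pass the threshold (edgeR adjusted p = 0.217). Without replicate 3 it was -1.15 (SE 0.39, edgeR adjusted p = 0.0197), and Il6 was then called lower.

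Lif, a cytokine of stromal and other cells, was detected in the opposite group. MKs cultured alone held 0, 0, 2 and 0 counts of Lif and cocultures held 20, 20, 0 and 17 counts. In CPM the cocultures stood at 1.90, 2.61, 0 and 2.95. The groups overlapped only through replicate 3. The ratio of the summed CPM was 25 (95% counting interval 6.60 to 211), and without the filter the log2 fold change of Lif was 4.53 (SE 1.56, edgeR adjusted p = 0.0652). Without replicate 3 it was 4.88 (SE 0.92, edgeR adjusted p = 0.000271) and Lif was called higher.

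Il11, a cytokine that promotes MK maturation, stayed near the limit of detection. MKs cultured alone held 0, 1, 0 and 0 counts of Il11 and cocultures held 12, 4, 0 and 2 counts. Only replicates 1 and 2 of the cocultures were above 3 counts. The ratio of the summed CPM was 15.8 (95% counting interval 2.49 to 657). Without the filter the log2 fold change of Il11 was 3.44 (SE 1.44, edgeR adjusted p = 0.115). Without replicate 3 it was 3.83 (edgeR adjusted p = 0.0127), but its mean of 0.668 ± 0.415 CPM (SD, n = 3) was under 1 CPM and Il11 was not called.

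Il7, the cytokine of early B cells, had 2, 8, 0 and 1 counts in MKs cultured alone and 126, 77, 0 and 54 counts in cocultures. The cocultures stood at 11.9, 10.03, 0 and 9.37 CPM, against at most 0.825 CPM in MKs cultured alone. Replicates 1, 2 and 4 lay close together and above all MKs cultured alone, and replicate 3 had no count. Without the filter the log2 fold change of Il7 was 4.36 (SE 1.54, edgeR adjusted p = 0.0707). Without replicate 3 it was 4.75 (SE 0.56, edgeR adjusted p = 1.9e-06) and Il7 was called higher. An antisense gene, Gm16685, overlaps Il7, and as the use of strand in counting is not given in the sources used here, reads of the pair may be mixed.

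Fgf2, a growth factor of stromal cells and MKs, had 0, 4, 3 and 3 counts in MKs cultured alone and 454, 256, 11 and 133 counts in cocultures. The cocultures stood at 43.0, 33.3, 1.15 and 23.1 CPM, and the highest library of MKs cultured alone at 0.488 CPM. The groups did not overlap, although replicate 3 was far below the other cocultures. Without the filter the log2 fold change of Fgf2 was 6.19 (SE 1.18, edgeR adjusted p = 0.00646), and without replicate 3 it was 6.54 (SE 0.41, edgeR adjusted p = 8.51e-10). Fgf2 overlaps Gm43439 on its own strand and Fgf2os, Gm42923 and Nudt6 on the other, so its counts are uncertain.

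Angpt1, the agonist of TIE2, is known to be made by MKs themselves as well as by stromal cells, and it was well expressed in both groups. Its counts were 637, 876, 729 and 721 in MKs cultured alone and 773, 458, 199 and 363 in cocultures. As levels, MKs cultured alone held 141, 90.3, 80.8 and 117 CPM of Angpt1 and cocultures held 73.3, 59.7, 20.8 and 63.0 CPM. Each coculture lay below each library of MKs cultured alone. The means were 107 ± 27.1 CPM and 54.2 ± 23.0 CPM (SD, n = 4 each). The log2 fold change of Angpt1 was -0.98 (SE 0.38, 95% interval -1.86 to -0.11), which was not called by edgeR (adjusted p = 0.0983) and was called lower by DESeq2 (-1.01, adjusted p = 0.043). Without replicate 3 it was -0.73 (SE 0.20, edgeR adjusted p = 0.00642), a change under 2-fold. Per 1000 CPM of MK and platelet markers, Angpt1 stood at 65.2, 43.2, 42.9 and 57.2 CPM in MKs cultured alone and at 43.2, 37.3, 8.94 and 32.1 CPM in cocultures, where the groups just touched. An antisense gene, Gm17473, overlaps Angpt1.

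**Figure D2:**
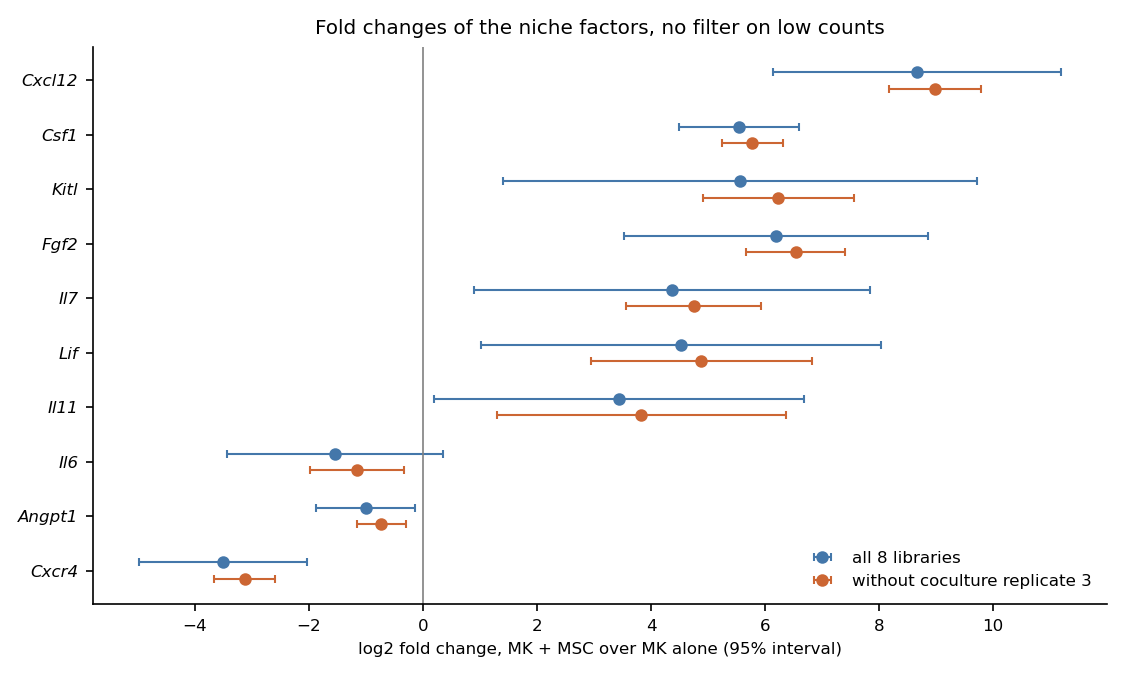
Log2 fold change of each gene in cocultures over MKs cultured alone, from edgeR without the filter on low counts, with all 8 libraries (blue) and without replicate 3 of the cocultures (orange); bars are 95% intervals. Direction is the same in both fits for all 10 genes, and the intervals without replicate 3 are narrower.

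Per kilobase of annotated exon, the order of the genes differed between the groups. In MKs cultured alone, Cxcr4 had the highest level at 50.5 ± 11.4 CPM per kilobase (SD, n = 4), Angpt1 stood at 20.6 ± 5.20, Il6 at 3.18 and Csf1 at 2.12. The ranges of Il6 and Csf1 overlapped, and the other 6 genes lay at or under 0.0834 CPM per kilobase with overlapping ranges. In cocultures without replicate 3, Csf1 had the highest level at 121 ± 20.7 CPM per kilobase (SD, n = 3), ahead of Angpt1 at 12.5 ± 1.36, Cxcl12 at 9.44 ± 1.46 and Cxcr4 at 5.80 ± 1.63 with the 4 ranges apart from each other. Fgf2 at 4.89 and Kitl at 4.81 overlapped with each other, and Fgf2 overlapped with Cxcr4. Il7 at 1.84 and Il6 at 1.45 overlapped, as did Lif at 0.571 and Il11 at 0.321. With replicate 3 included, the mean order was the same, but only the range of Csf1 stayed apart from that of the next gene.

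Replicate 3 of the cocultures was the lowest coculture for all 10 genes. Its level was 35.7% of the mean of the other cocultures for Csf1 and 31.9% for Angpt1, 9.97% for Cxcr4, 7.59% for Cxcl12, 5.94% for Il6 and 3.47% for Fgf2, and Kitl, Il7, Lif and Il11 were at 0. The summed MSC markers of that library were at 38.7% of the others, with Pdgfra, which encodes a sorting marker of the MSCs, at 0.729%, Postn at 0 and Fbn1 at 74.5%. Genes at 0 in this library were common where the other cocultures were low. Among genes at a mean of 1 to 10 CPM in the other cocultures, the range of Il6 and Lif, 44.0% were at 0, and among genes at 10 to 100 CPM, the range of 6 of the 10 genes including Kitl and Il7, 8.36% were at 0. Among genes at 100 to 1000 CPM, the range of Csf1, 0.271% were at 0. The median gene of replicate 3 stood at 2.83% of the mean of the other cocultures in the range of 1 to 10 CPM. This median was 83.2% in the range of 10 to 100 CPM and 103% in the range of 100 to 1000 CPM.

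**Figure D3:**
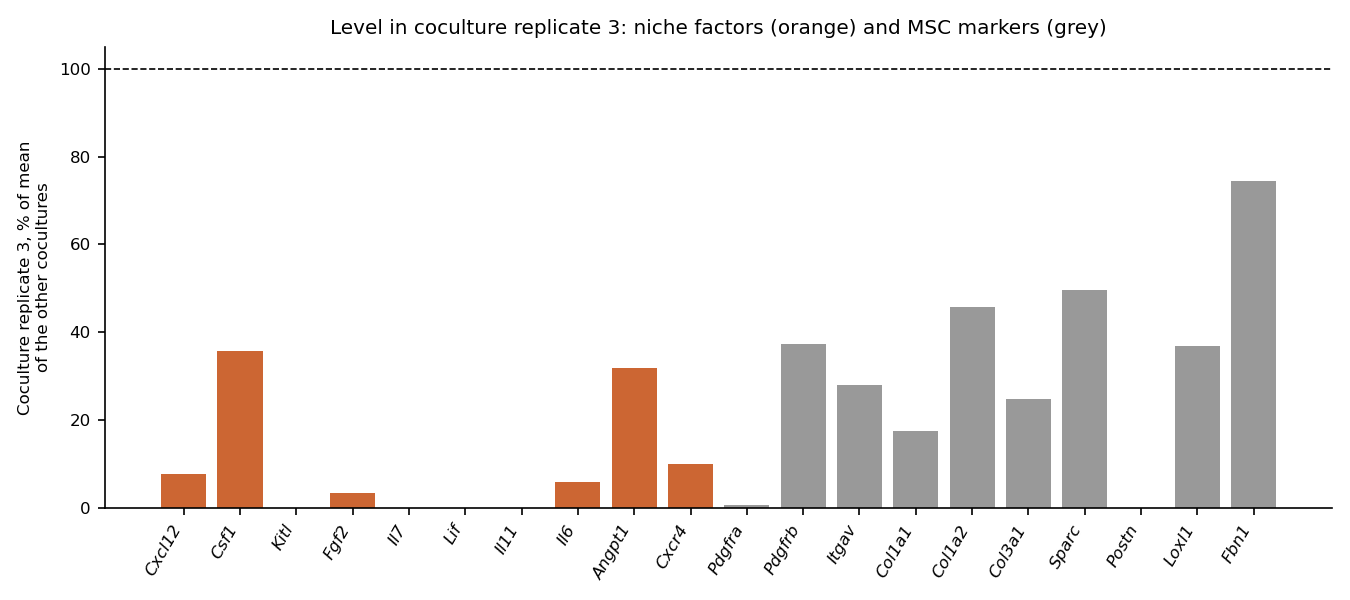
Level in replicate 3 of the cocultures as a percent of the mean of the other 3 cocultures, for the 9 factors and Cxcr4 (orange) and for 10 MSC and fibroblast markers (grey); the dashed line is 100%. Csf1 (35.7%) and Angpt1 (31.9%) are the highest of the orange bars, and Fbn1 (74.5%) is the highest of the grey bars.

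The receptors of the factors were examined as a list of 15 genes, of which 12 were analysed here and 11 were tested. Csf1r and Fgfr1 were called higher in cocultures and Kit, Tek and Il6ra were called lower, and 6 were not called. Of all genes tested, 13.2% were called higher and 7.31% lower. The median log2 fold change of the list was 0.74, against 0.034 for all genes tested. Without replicate 3 and without the filter, 5 receptors were called higher (Csf1r, Fgfr1, Fgfr2, Il6st and Lifr) and the same 3 were called lower. The shares of all genes were then 20.6% higher and 14.6% lower. In that fit the log2 fold change was -3.23 for Kit, -1.73 for Tek, -2.16 for Il6ra, 1.496 for Csf1r and 3.10 for Fgfr1.

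Kit, the receptor of KIT ligand, was at 192, 223, 190 and 203 CPM in MKs cultured alone and at 24.1, 20.6, 0.942 and 20.3 CPM in cocultures. The groups were far apart, with a log2 fold change of -3.62 (SE 0.75, edgeR adjusted p = 0.00901). Mast cells also carry KIT. The 5 markers of mast cells and basophils together summed to between 957 and 1131 CPM in MKs cultured alone and between 88.4 and 232 CPM in cocultures. The part of mast cells in the Kit level was not tested. Tek, which encodes TIE2, was at 34.4, 24.0, 28.5 and 34.8 CPM in MKs cultured alone and at 11.1, 11.9, 10.7 and 4.34 CPM in cocultures (log2 fold change -1.68, SE 0.42, edgeR adjusted p = 0.0195). Tie1, a co-receptor of TIE2, had a mean of 18.7 ± 3.50 CPM in MKs cultured alone and 7.56 ± 5.74 CPM in cocultures (SD, n = 4 each) and was not called (edgeR adjusted p = 0.409).

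Of the gp130 receptor chains, Il6ra, which binds IL-6, fell, from 18.3, 17.7, 26.6 and 31.9 CPM to 5.50, 5.34, 0.628 and 5.20 CPM (log2 fold change -2.50, SE 0.67, edgeR adjusted p = 0.0268). When any 1 of the 4 libraries of MKs cultured alone was left out, Kit was the 1 receptor still called lower, and Tek and Il6ra were not; without replicate 2 or replicate 4 of the cocultures, Il6ra was not called. Il6st, which encodes gp130, stood at 15.7, 19.6, 15.2 and 14.3 CPM in MKs cultured alone and at 115, 115, 0 and 100 CPM in cocultures. Replicate 3 thus had no count of a gene that was near 100 CPM or above it in the other cocultures. Over all 8 libraries Il6st was not called (log2 fold change 2.35, SE 1.23, edgeR adjusted p = 0.206), and without replicate 3 it was called higher (2.74, edgeR adjusted p = 2.14e-09). Lifr, the LIF receptor, was at 11.8 ± 3.76 CPM (SD, n = 4) in MKs cultured alone and at 26.3, 31.3, 0.105 and 21.0 CPM in cocultures, and it was called higher only in the fits without replicate 3 (1.14, edgeR adjusted p = 0.00205 without the filter). Il11ra1, the IL-11 receptor, had means of 19.5 ± 4.24 and 34.2 ± 3.82 CPM (SD, n = 4 each) and was not called (0.81, edgeR adjusted p = 0.0861).

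Csf1r, the receptor of CSF1, was at 69.5, 129, 120 and 99.9 CPM in MKs cultured alone and at 261, 329, 151 and 309 CPM in cocultures. The groups did not overlap (log2 fold change 1.33, SE 0.30, edgeR adjusted p = 0.0127). Csf1r is itself 1 of the 10 macrophage markers, of which 9 were tested and 8 were called higher. Fgfr1, an FGF receptor of stromal cells, was at 5.52, 8.76, 9.87 and 7.65 CPM in MKs cultured alone and at 70.3, 61.2, 60.5 and 79.3 CPM in cocultures (3.09, SE 0.30, edgeR adjusted p = 0.000154), and replicate 3 lay close to the others. Fgfr2 had no count in MKs cultured alone and stood at 15.4, 14.6, 0.105 and 9.02 CPM in cocultures, at least 95.7-fold higher than a floor of 3 counts over the group. The IL-7 receptor chains were not called, with Il7r at 37.8 ± 12.0 and 65.0 ± 19.1 CPM (0.78, edgeR adjusted p = 0.128) and Il2rg at 114 ± 16.0 and 145 ± 18.8 CPM (0.35, edgeR adjusted p = 0.212; SD, n = 4 each).

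**Figure D4:**
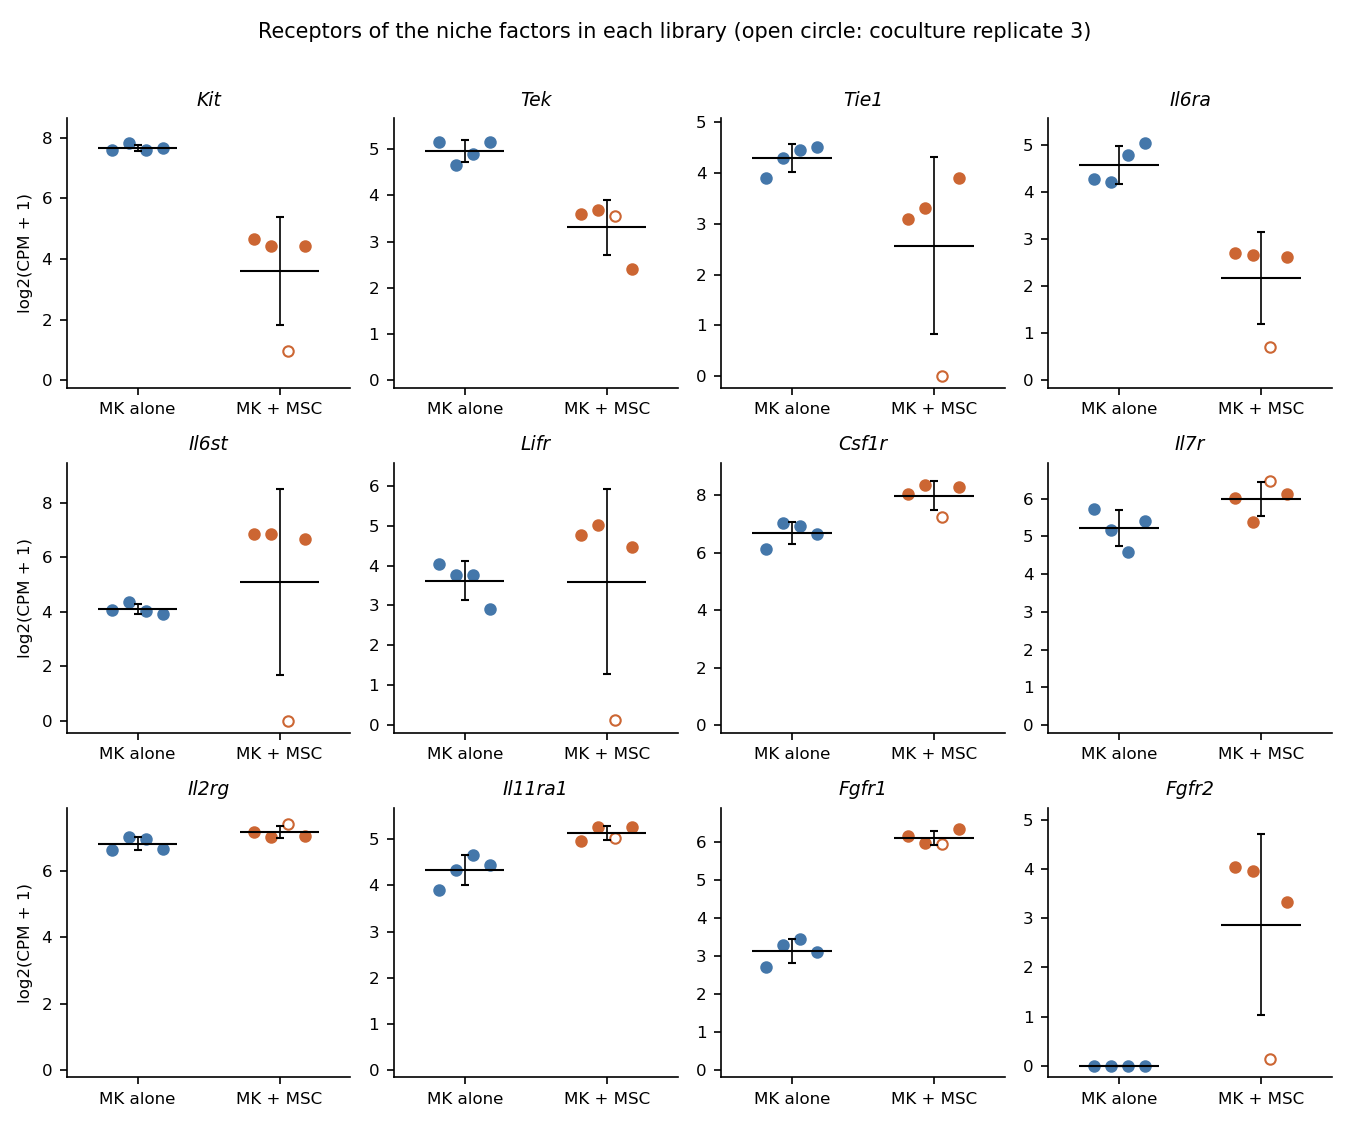
Level of 12 receptors of the factors in each library, as log2(CPM + 1), with MKs cultured alone in blue, cocultures in orange and replicate 3 of the cocultures as an open circle; lines and bars give the mean ± SD of 4 libraries. Kit, Tek, Tie1 and Il6ra are lower in every coculture, and Il6st is at 0 in replicate 3. Csf1r, Il2rg, Il11ra1, Fgfr1 and Fgfr2 are higher in every coculture, Fgfr2 in replicate 3 by only 1 count. The lowest coculture of Il2rg, at 129.6 CPM, is just above the highest library of MKs cultured alone, at 129.0 CPM. Of all genes, 17.8% are higher and 19.4% lower in every coculture.

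A further list held 15 other ligands that support blood cells, of which 10 were analysed here and 8 were tested. Fgf7, Il34 and Clcf1 were called higher, against 13.2% of all genes. None was called lower by edgeR, where 1 of the 8 was lower at an unadjusted p under 0.05, and DESeq2 called 1, Tslp, lower. DESeq2 called Fgf7 and Clcf1 higher, and did not call Il34. The median log2 fold change was -0.36, against 0.034 for all genes. Fgf7, a ligand of an FGFR2 isoform, had no count in MKs cultured alone and stood at 297, 213, 217 and 191 CPM in cocultures, at least 2249-fold higher than a floor of 3 counts over the group (edgeR adjusted p = 2.7e-05). Replicate 3 lay within the range of the other cocultures for Fgf7. Il34, the second ligand of CSF1R, had a mean of 0.272 ± 0.288 CPM (SD, n = 4) in MKs cultured alone and stood at 3.60, 3.13, 55.6 and 6.77 CPM in cocultures (5.89, SE 1.37, edgeR adjusted p = 0.0153), with replicate 3 the highest; without it the change was 3.92. Clcf1, a gp130 cytokine, was at 1.29 ± 0.259 CPM (SD, n = 4) and at 3.03, 3.91, 14.8 and 3.82 CPM (2.29, SE 0.70, edgeR adjusted p = 0.0445), again with replicate 3 the highest; without it the change was 1.43. When replicate 1, 2 or 3 of MKs cultured alone was left out, Fgf7 was the 1 ligand still called. Clcf1 was also lost without replicate 4 of MKs cultured alone and without replicate 2 or 4 of the cocultures. Il15, a lymphocyte cytokine, had means of 43.6 ± 12.3 and 8.83 ± 5.97 CPM (SD, n = 4 each) and was not called (-2.31, edgeR adjusted p = 0.143), but was called lower without replicate 3 (-1.90, edgeR adjusted p = 6.18e-06). In that fit 4 of these ligands were called higher, with Angpt2, the antagonist of ANGPT1, added, and 3 were called lower (Il15, Tslp and Osm). The shares of all genes were then 20.6% higher and 14.6% lower.

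Among 13 tested genes of gp130 signalling, 1 was called higher and 2 lower, against 13.2% and 7.31% of all genes. The median log2 fold change was 0.28. Cebpb, a transcription factor induced by IL-6, rose (2.38, edgeR adjusted p = 0.0148), from 38.7 ± 11.2 CPM to 94.4, 86.9, 447 and 180 CPM. Cebpd, its relative, fell (-1.59, edgeR adjusted p = 0.00349), and this call held with each library left out in turn. Jak1, the kinase with the highest level, was not called (-0.97, edgeR adjusted p = 0.0367, under 2-fold), nor was Stat3 (-0.36, edgeR adjusted p = 0.196). Without replicate 3 the change of Cebpb was 1.61. Cebpb was not called without replicate 1 or 2 of MKs cultured alone. Socs3, a feedback target of gp130 named after its values were seen, was at 2.58 ± 0.252 CPM (SD, n = 4) in MKs cultured alone and at 9.38, 17.8, 0 and 17.2 CPM in cocultures. It was not called over 8 libraries (edgeR adjusted p = 0.239) and was called higher without replicate 3 and without the filter (2.48, edgeR adjusted p = 6.6e-06). Socs1, its relative, was called lower in that fit (-1.18, edgeR adjusted p = 0.0159). In all, 2 genes of the list were then called higher (Socs3 and Cebpb) and 3 lower (Jak2, Socs1 and Cebpd). The shares of all genes were 20.6% higher and 14.6% lower.

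Of 17 tested genes of CXCR4 signalling and CXCL12 processing, 7 were called lower (Dpp4, Grk3, Pik3cg, Rgs2, Rgs18, Cd74 and Gnai3), against 7.31% of all genes, and the median log2 fold change was -1.23. Leukocyte markers were lower in the same libraries: all 10 neutrophil markers were called lower, and 9 B cell markers summed to between 886 and 946 CPM in MKs cultured alone and between 91.1 and 236 CPM in cocultures. Their part in these changes was not tested. Dpp4, a protease that cleaves CXCL12, fell from 51.2 ± 4.60 CPM to 4.48 ± 2.89 CPM (-3.52, edgeR adjusted p = 0.0124). Pik3cg, a kinase subunit downstream of chemokine receptors, fell from 300.3 ± 27.7 CPM to 64.1 ± 7.32 CPM (-2.23, edgeR adjusted p = 5.27e-05; SD, n = 4 each for both genes). Grk3, a receptor kinase (-3.12, edgeR adjusted p = 0.0294), Rgs2, a regulator of G protein signalling (-1.85, edgeR adjusted p = 0.0292), and Rgs18, its relative in MKs (-1.30, edgeR adjusted p = 0.00908), were also lower. Rac2, the GTPase with the highest level, was not called (-1.30, edgeR adjusted p = 0.0531) and was called lower without replicate 3 (-1.87). Pik3cg, Rgs18 and Dpp4 were called with every library left out in turn, whereas Grk3 and Rgs2 were not called when any 1 library of MKs cultured alone, or replicate 2 or 4 of the cocultures, was left out, and Rgs2 also not without replicate 1 of the cocultures. Gnai3 was lost without replicate 1 of MKs cultured alone and when libraries were scaled to MK and platelet markers, and Cd74 without replicate 2 of either group or replicate 4 of the cocultures. Rgs2 was at 119 CPM in replicate 3 and at 25.4 to 31.0 CPM in the other cocultures, and its change without replicate 3 was -2.70. Without replicate 3 and without the filter, 11 genes of this list were called lower and 3 higher (Gnai1, Rgs16 and Mme), against 14.6% and 20.6% of all genes.

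Heparan sulfate proteoglycans, which bind FGF2 and CXCL12 at the cell surface and in matrix, were called higher for 7 of 10 genes and lower for 1. Of all genes, 13.2% were called higher and 7.31% lower. The median log2 fold change of the list was 4.003, against 0.034 for all genes. Hspg2, which encodes perlecan, had no count in MKs cultured alone and stood at 30.3, 41.0, 48.1 and 63.3 CPM in cocultures, at least 448-fold higher than a floor of 3 counts over the group. Gpc6, a glypican, also had no count in MKs cultured alone and was at least 120-fold higher. Sdc3 (6.44, edgeR adjusted p = 0.000212), Gpc4 (5.63, edgeR adjusted p = 1.83e-05) and Sdc2 (4.10, edgeR adjusted p = 2.78e-05) rose as well. Gpc3, the 1 gene called lower and named after its values were seen, went from 4.57 ± 2.52 to 0.117 ± 0.137 CPM (SD, n = 4 each; -5.09, edgeR adjusted p = 0.00795). All 8 calls held with each library left out in turn. MSC markers rose in the same libraries, 8 of the 9 tested, and their part in these changes was not tested.

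Regulators of CAR cells were called higher for 4 of 6 tested genes, against 13.2% of all genes. These 4 were at or near 0 CPM in MKs cultured alone, so they could be called higher only. Ebf1 and Runx2 were not called (-0.35, edgeR adjusted p = 0.608, and -1.06, edgeR adjusted p = 0.0631). The mean of Ebf1 was 39.5 CPM in MKs cultured alone and 30.9 CPM in cocultures. Runx2 was lower in every coculture, with means of 34.3 and 16.4 CPM. In DESeq2 3 were called higher, without Ebf3, and 1, Runx2, was called lower. Prrx1, a mesenchymal transcription factor, was at 0.193 ± 0.317 CPM in MKs cultured alone and at 178.6 ± 54.0 CPM in cocultures (SD, n = 4 each; 10.12, edgeR adjusted p = 5.67e-05). Foxc1, which maintains CAR cells, had no count in MKs cultured alone and was at least 468-fold higher in cocultures. Nr2f2 (6.13, edgeR adjusted p = 0.00465) and Ebf3 (6.96, edgeR adjusted p = 0.0157) also rose, the latter with 36.5 CPM in replicate 3 against at most 2.65 CPM in the other cocultures, and its change without replicate 3 was 4.48. Ebf3 was not called without replicate 1, 2 or 3 of MKs cultured alone. Lepr, the leptin receptor that marks CAR cells, was named after its values were seen, stood at 3.03, 2.35, 0 and 0.694 CPM in cocultures and did not pass the filter; it was not called without the filter, and was called higher when replicate 3 was left out as well (3.71, edgeR adjusted p = 0.00207). Of 11 tested genes of NF-kB and its IL-1 and TNF input, 2 were called lower, against 7.31% of all genes. These were Nfkb1 (-1.13, edgeR adjusted p = 0.00695) and Il1b (-1.44, edgeR adjusted p = 0.0366). Il1b was not called when any 1 library of MKs cultured alone, or replicate 2 or 4 of the cocultures, was left out. Nor was Il1b called when libraries were scaled by size only or to MK and platelet markers. Without replicate 3 of the cocultures, 3 genes of this list were called higher (Relb, Il1r1 and Tnf), against 20.6% of all genes. DESeq2 called 3 higher (Nfkb2, Relb and Il1r1), where 1857 of all 11722 genes were called higher. Rela, which encodes a main NF-kB subunit, was not called (0.69, edgeR adjusted p = 0.165).

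The genes whose profile over the 8 libraries was most like that of Cxcl12 were Col12a1, Mxra8 and Pxdn. Likeness was the root mean square difference of log2(CPM + 1) after centering, over 9623 candidate genes, and was 0.394, 0.398 and 0.405. Mxra8, a membrane protein of mesenchymal cells, stood at 114, 141, 11.6 and 123 CPM in cocultures, with the same low replicate 3. For Cxcr4 the nearest profiles were those of Adgrl4, Ipcef1 and Mc5r (0.189, 0.231 and 0.232). Adgrl4, an adhesion receptor, stood at 152, 101, 97.1 and 135 CPM in MKs cultured alone and at 18.3, 8.73, 0.837 and 14.6 CPM in cocultures. These are descriptions over 8 libraries of 2 groups, where any gene that differs between the groups shares much of its profile.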

How the data were processed

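Bulk RNA-Seq was performed on MKs cultured alone (4 libraries) or with MSCs (4 libraries). The authors deposited raw counts per gene, whole numbers without normalization, made from low-input SMART-Seq HT paired-end reads with fastp and kallisto on the mm10 transcriptome, according to the methods and the submitters' processing notes. How counts were summed over transcripts and whether strand was used is not given in the sources used here. The batch in the authors' DESeq2 design is not named, so no covariate was used.

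The main test was the quasi-likelihood F test of edgeR 4.0.16 with robust dispersions (R 4.3.3), over all 8 libraries, after TMM scaling and filtering by filterByExpr. Adjustment was over all genes tested, and calls used the fold, p and expression cutoffs of the study with CPM in place of TPM. SE is the log2 fold change divided by the square root of F, and fitted changes of genes near 0 counts depend on the prior count. Totals ran from 4939874 to 12523616 counts. No 2 libraries of a group agreed within sampling noise. Alternatives were DESeq2 1.42.0, RLE factors, library size only, scaling to MK and platelet markers, no filter, adjusted p alone, a replicate block and each library left out. Positions and exon lengths came from GENCODE vM21 on GRCm38. Ratios of summed counts carry exact intervals (scipy 1.17.1), and the test was checked on simulated counts.

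The members and gene lists were chosen with earlier results of these data known. Named were all members, every receptor analysed, the 3 profiles nearest to Cxcl12 and Cxcr4 and, per list, up to 4 genes with the largest change among those called and up to 2 with the highest level. Any other gene was chosen after its values were seen. For the gp130 signalling list, 1 gene is not reported here.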

Additional observations from a re-analysis of the deposited data

Results flagged for a closer look

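In each group of 4 libraries, the level of each member and receptor was examined, as log2(CPM + 1), for a lone extreme library by Dixon's criterion at the 95% level. It was met in 10 of 44 gene and group combinations (2.2 would be met by chance), 7 times by coculture replicate 3.

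In that replicate, Cxcl12 stood at 2.78 (6.01 to 6.44 in the other cocultures), Angpt1 at 4.45 (5.92 to 6.21) and Il7 at 0 (3.37 to 3.69). Among receptors, Kit stood at 0.96 (4.41 to 4.65), Il6ra at 0.70 (2.63 to 2.70), Il6st at 0 (6.66 to 6.86) and Lifr at 0.14 (4.46 to 5.01). Tek stood apart in replicate 4 of the cocultures, at 2.42 (3.55 to 3.68 in the others). Lif stood at 0.29 in replicate 3 of MKs cultured alone and Il11 at 0.14 in replicate 2, where the other libraries of that group were at 0; these values are 2 counts of Lif and 1 count of Il11.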

How the results depend on the processing

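Cxcl12, Csf1 and Cxcr4 were called in the same direction under every alternative run, and no member tested over 8 libraries changed sign. With 1 library left out, the log2 fold change ranged from 8.35 to 9.09 for Cxcl12, 5.07 to 7.84 for Kitl, 5.35 to 5.78 for Csf1, -1.16 to -0.73 for Angpt1, -1.92 to -1.15 for Il6 and -3.82 to -3.13 for Cxcr4. The count of members called higher was 2 (range 2 to 6 with 1 library left out) and of those called lower 1 (range 1 to 2); for receptors these were 2 (range 2 to 5) and 3 (range 1 to 3), for other ligands 3 (range 1 to 4) and 0 (range 0 to 3), and for all genes 1544 (range 1071 to 2530) and 857 (range 539 to 1890). Without replicate 3 of the cocultures and without the filter, chosen after seeing the data, the counts were 6 higher and 2 lower for members, 5 higher for receptors, 3 lower for other ligands, and 2750 higher and 1950 lower for all genes. DESeq2 called 2 members lower and 1 other ligand lower. Fewer libraries and other genes tested enter these fits, and the cause of each shift was not tested. Over all genes tested, the median change (log2) was 0.034, and 0.18 when libraries were scaled to MK and platelet markers.

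The replicate numbers of the labels are shared by both groups. Deviations from the group means correlated with r of 0.37, 0.020, 0.15 and 0.028 between same-numbered libraries. Not every library correlated best with its own number. Such correlations within small groups cannot decide whether same-numbered libraries shared a batch. With the replicate number as a block, the log2 fold change was 8.28 for Cxcl12, 5.52 for Csf1 and -3.83 for Cxcr4, all still called. Receptors called lower went from 3 to 1, and no count for members changed. Of the genes named as called in the other lists, Gpc6, Dpp4, Grk3, Nr2f2, Clcf1 and Il1b were not called with the block. Jak1 and Rac2 were then called lower.

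Low counts limit Kitl, Lif, Il7, Il11 and Fgf2. With any 1 library of MKs cultured alone left out, 9 members passed the filter and Fgf2 was called higher.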
